A study of Mus musculus with 6 samples.

Results

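The genes described are regulators of germ cell fate, read in embryonic stem cells of the mouse that were wild type or labelled Max-/-: Prdm1, Tfap2c, Nanos2, Nanos3, Dnd1, Kit, Sohlh1, Sohlh2 and Figla. These 9 genes, named for their roles in primordial germ cells and later germ cells, were read from 55536 Ensembl genes in the table of each library by matching the identifier to its GENCODE M21 symbol, and all 9 were found. The cells were of strain C57BL/6, with 3 libraries labelled wild type (WT) and 3 labelled Max-KO (genotype Max-/-). No treatment, time point or further allele is labelled. The sources used here do not say whether the libraries of a group came from separate cultures or clones. The p-values therefore measure the spread between these libraries, which may be technical.

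Primordial germ cells are set aside from the early epiblast by BMP and WNT signals, which switch on the transcription factors PRDM1, PRDM14 and TFAP2C. The RNA-binding proteins NANOS3 and DND1 and the receptor KIT then keep the young germ cells alive, while NANOS2 acts later in the male germ line. SOHLH1, SOHLH2 and FIGLA are basic helix-loop-helix factors of differentiating spermatogonia and oocytes. MAX is the partner with which MYC proteins bind the E-box, and it also belongs to the repressor complex PRC1.6.

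The values were taken as FPKM, fragment counts divided by transcript length and by library depth, so levels of different genes are compared per length. Summed FPKM was 645169 to 774405 per library, and the step size of low values corresponded to estimated depths of 21.1 to 28.65 M fragments (M, 1e6). Max itself stood at 41.6, 50.2 and 42.3 FPKM in WT 1 to 3 and at 35.8, 39.6 and 43.4 FPKM in Max-KO 1 to 3. These groups overlapped, and a gene-level FPKM does not show a missing exon, so the genotype labels could not be checked this way. Pluripotency markers were high in both groups: the 8 genes on that list summed to 4852 to 5510 FPKM in WT and 7053 to 7693 FPKM in Max-KO, with 6 higher, none lower and none at 0. In bulk RNA, fewer cells expressing a gene and less RNA of it per cell cannot be told apart.

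Every Max-KO library stood above every WT library for each of the 3 helix-loop-helix genes, and also for Prdm1 and Dnd1. Only the sequences before the starts of the 3 helix-loop-helix genes are shown. Each is the 250 bases before the RefSeq transcription start on GRCm38.p6, 5′ to 3′ on the gene's strand, with matches to CACGTG (the E-box bound by MAX dimers) and CAGGTG (an E2-box, also read as CACCTG on the other strand) in capitals. The Sohlh1 window lies at chr2:25847249-25847498 on the minus strand, the Sohlh2 window at chr3:55181794-55182043 on the plus strand, and the Figla window at chr6:86016941-86017190 on the plus strand. In GENCODE M21 the Sohlh1 window is upstream of the gene, the last bases of the Sohlh2 window reach into its first exon, and the Figla window lies in an intron of a longer non-coding Figla transcript.
Sohlh1: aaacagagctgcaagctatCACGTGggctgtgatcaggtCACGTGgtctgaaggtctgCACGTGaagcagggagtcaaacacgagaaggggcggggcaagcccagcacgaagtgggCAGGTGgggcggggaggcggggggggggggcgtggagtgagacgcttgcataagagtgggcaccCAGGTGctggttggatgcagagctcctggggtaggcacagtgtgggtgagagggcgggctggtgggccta
Sohlh2: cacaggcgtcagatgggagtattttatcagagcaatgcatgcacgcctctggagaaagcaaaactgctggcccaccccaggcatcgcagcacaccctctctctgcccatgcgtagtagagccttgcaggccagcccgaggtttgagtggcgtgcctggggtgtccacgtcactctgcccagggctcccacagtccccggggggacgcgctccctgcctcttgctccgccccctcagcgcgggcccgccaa
Figla: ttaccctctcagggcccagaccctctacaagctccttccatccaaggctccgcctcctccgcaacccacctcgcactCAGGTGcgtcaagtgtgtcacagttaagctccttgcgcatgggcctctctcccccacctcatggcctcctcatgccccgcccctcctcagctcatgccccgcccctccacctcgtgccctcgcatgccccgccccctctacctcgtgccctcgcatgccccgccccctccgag

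The Sohlh1 window held 3 copies of CACGTG, at positions -231, -211 and -192 from the start, and 2 copies of CAGGTG, at -134 and -70. Across all 32851 RefSeq windows of this length, 6.02% held CACGTG at least once and 0.0609% (20 windows) held it at least 3 times. The letters were chosen after the sequences had been seen, so these shares are not a test of the Sohlh1 window. The windows of Sohlh2 and Figla held no CACGTG, and Figla held 1 CAGGTG, a motif found in 17.2% of windows. The E2F-type letters GCGGGAA (3.82% of windows) and the T-box letters AGGTGTGA (1.12% of windows) were in none of the windows of the 7 regulators that had an entry, searched on both strands. The 2 without one were Tfap2c and Dnd1. Among the other 4, Prdm1 and Nanos3 each had 1 CAGGTG, while Nanos2 and Kit had no match to any of the letters searched. The Sohlh1, Sohlh2 and Figla windows had 64.4%, 64.8% and 67.2% G or C and 11, 14 and 14 CpG dinucleotides, against medians of 52.4% and 6 over all windows. The same measures did not set these 3 apart: the 2 Kit windows had 70.8% G or C with 17 and 18 CpG, Prdm1 59.2% with 15, Nanos3 56.4% with 3, and Nanos2 50.8% with none. A match describes the letters only, and no binding was measured here.

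**Figure D1:**
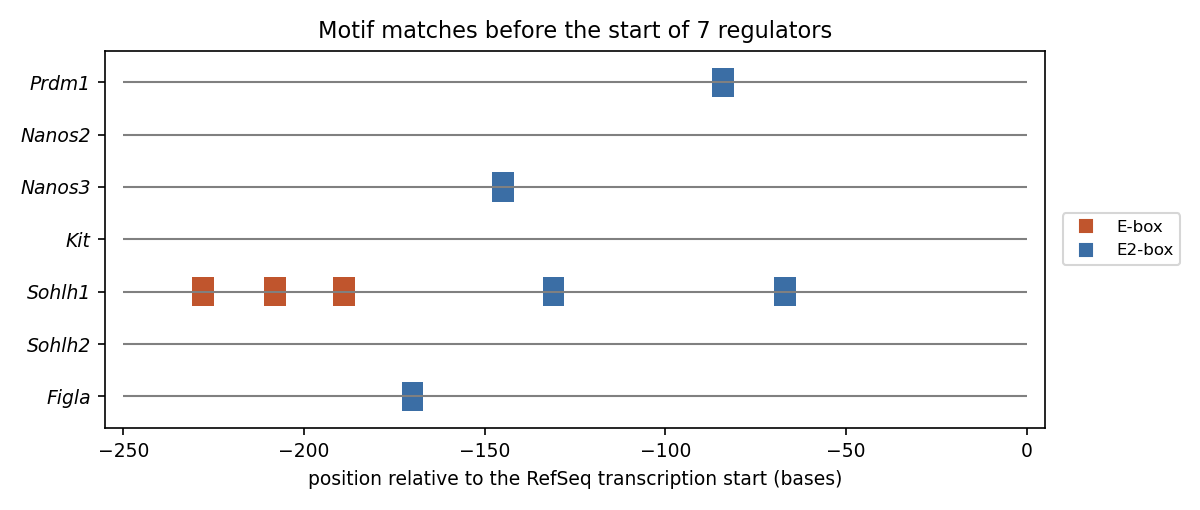
Positions of E-box (orange) and E2-box (blue) matches in the 250 bases before the RefSeq start of the 7 regulators with an entry; the x axis is the distance from the start in bases. The 3 E-boxes lie in the Sohlh1 window, upstream of its 2 E2-boxes.

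Of the 9 regulators, 7 reached a mean of 1 FPKM in at least 1 group and were tested with limma on log2(FPKM + 1) over all 14661 genes that did so. Prdm1, Dnd1, Sohlh1 and Sohlh2 rose in Max-KO at a Benjamini-Hochberg adjusted p under 0.05, none fell, and Tfap2c, Nanos3 and Kit were not called. Among all genes tested, 66.2% were called, 43.0% as higher and 23.2% as lower, so 4 of 7 is near the background and is not a result about these regulators as a group. Sohlh1 was tested only because of its Max-KO level, which fixed its direction, and 3 of the 6 others were called. The groups did not overlap for 5 of the 7, against 72.0% of all genes tested. Each difference subtracts the WT mean from the Max-KO mean of log2(FPKM + 1), a scale that understates changes at low levels. The median difference of all genes was 0.21 and moved with the scaling, to -0.03 with median-ratio factors, 0.43 with TPM and -0.02 with quantile normalization. Of the called genes 64.9% were higher as deposited, and 47.0%, 77.7% and 46.7% with these scalings in turn. The difference of each tested regulator is therefore also given less the 0.21 of all genes. This can take off too much at low levels: with median-ratio factors Sohlh1 moved from 1.78 to 1.68, less than the median did.

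**Figure D2:**
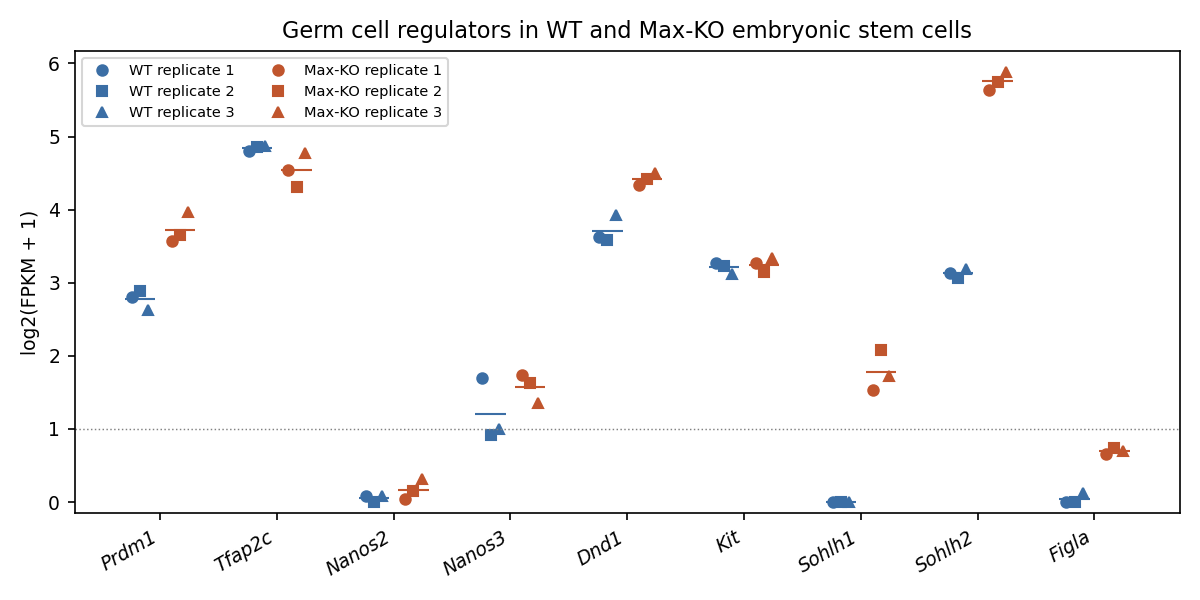
Level of each regulator in every library as log2(FPKM + 1); symbols mark the 3 replicates of WT (blue) and Max-KO (orange), bars their means, and the dotted line 1 FPKM. Sohlh2 has the widest gap between groups, Kit and Nanos3 overlap, and Sohlh1 lies at 0 in every WT library.

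Prdm1 encodes BLIMP1, the transcription factor that represses the somatic program in primordial germ cells (ENSMUSG00000038151; GRCm38 chromosome 10, 44437177 to 44528501, minus strand). WT 1 to 3 held 5.99, 6.41 and 5.16 FPKM, and Max-KO 1 to 3 held 10.84, 11.58 and 14.64 FPKM. Every Max-KO library stood above every WT library, with Max-KO 3 the highest. The ratio of means was 2.11, and the log2 difference was 0.96 ± 0.13 (SE; 0.75 less the median of all genes; limma adjusted p = 0.000601). A rise of at least this size was seen in 15.7% of the genes tested. Prdm1 is also active in extraembryonic endoderm and trophoblast, and markers of these cells are given beside it. Primitive endoderm markers summed to 31.8 to 33.3 FPKM in WT and 48.1 to 60.3 FPKM in Max-KO, with 5 of 10 called higher, none lower and none at 0 in all libraries. Of the 5, Gata4, Sox17 and Pdgfra were under 1 FPKM in WT, so the filter fixed their direction, and quantile normalization called 2. Most of that sum was Lamb1, a laminin subunit, at 29.2 to 30.4 and 41.6 to 49.2 FPKM. Their part in the Prdm1 difference was not tested.

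Tfap2c encodes AP-2 gamma, which acts downstream of PRDM1 in germ cells and also in trophoblast (ENSMUSG00000028640; chromosome 2, 172549593 to 172558622, plus strand). It had the highest level of the 9 in WT, at 27.01, 27.89 and 28.19 FPKM, and stood at 22.24, 18.89 and 26.46 FPKM in Max-KO. All 3 Max-KO libraries were below WT, but they spread more widely, and Max-KO 3 came close to WT. The log2 difference was -0.30 ± 0.12 (SE; 95% interval -0.57 to -0.03; -0.51 less the median of all genes), just short of the threshold (limma adjusted p = 0.0536). The gene was called lower under median-ratio scaling (-0.54, limma adjusted p = 0.00541), under quantile normalization (-0.45, limma adjusted p = 0.0160) and without Max-KO replicate 3 (-0.42, limma adjusted p = 0.00846). After rescaling to TPM it was -0.09 (limma adjusted p = 0.485). Trophoblast markers summed to 37.9 to 39.2 FPKM in WT and 44.2 to 56.0 FPKM in Max-KO. Of 10 such markers 6 were called higher and 1 lower, with Tpbpa at 0 in all libraries, but 4 of the 6 (Elf5, Gata3, Tfap2a and Krt7) were under 1 FPKM in WT, so the filter fixed their direction. Their part in the Tfap2c values was not tested.

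The other factors that specify primordial germ cells split in direction. Of 14 on that list 13 were tested, 7 were called higher and 5 lower (4 and 6 under median-ratio scaling), with a median log2 difference of 0.41 against 0.21 for all genes. Prdm14, the partner of PRDM1 in this step and named here after its values were seen, rose from 7.30, 7.63 and 8.31 FPKM to 17.9, 18.1 and 20.9 FPKM (log2 difference 1.19 ± 0.09 SE, limma adjusted p = 4.27e-05). The BMP-responsive inhibitors Id1 and Id2 rose by 2.83 ± 0.11 and 2.12 ± 0.09. Ifitm1, encoding a surface protein of early germ cells, stood at 510 to 569 FPKM in WT and fell by 1.75 on the log2 scale to 145 to 172 FPKM in Max-KO. Dppa3 (-1.47 ± 0.07) and Ifitm3 (-1.31 ± 0.07) were also called lower.

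Of 16 BMP and WNT3 signalling genes 13 were tested, with 10 called higher and 1 lower and a median of 0.62 against 0.21 for all genes, of which 43.0% were called higher. The count was 7 higher and 2 lower with median-ratio factors, 6 higher and 2 lower under quantile normalization and 11 higher and none lower after rescaling to TPM. Bmpr1b, a type I BMP receptor, went from a mean of 1.08 FPKM in WT to 6.92 FPKM in Max-KO (log2 difference 1.92 ± 0.14). The type II receptor Bmpr2 rose by 0.99 ± 0.14, and Bmp8b, a ligand that acts in germ cell induction, by 0.97 ± 0.15. Smad7, an inhibitor of the pathway, was lower by -0.43 ± 0.11, a call lost after rescaling to TPM (-0.23, limma adjusted p = 0.116). Smad6, another inhibitor on this list, went the other way. Its mean was 1.63 FPKM in WT and 3.34 FPKM in Max-KO (0.71 ± 0.15, limma adjusted p = 0.00443).

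Dnd1 encodes an RNA-binding protein without which primordial germ cells are lost (ENSMUSG00000044595; chromosome 18, 36763671 to 36766214, minus strand). Its level was 11.32, 10.98 and 14.22 FPKM in WT and 19.25, 20.42 and 21.59 FPKM in Max-KO, without overlap. The ratio of means was 1.68, and the log2 difference was 0.71 ± 0.11 (SE; 0.50 less the median of all genes; limma adjusted p = 0.000980). A rise of this size or larger was seen in 24.3% of genes tested. Dnd1 shares 140 of its 2412 exonic bases with Wdr55 on the opposite strand, and reads there cannot be told apart because the sources used here do not say whether counting used strand. Wdr55 fell, with 33.3, 34.5 and 37.6 FPKM in WT against 19.9, 21.7 and 19.4 FPKM in Max-KO.

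Nanos3 and Nanos2 encode zinc-finger RNA-binding proteins that protect early germ cells and male germ cells. Nanos3 (ENSMUSG00000056155; chromosome 8, 84173731 to 84185217, minus strand) stood at 2.25, 0.88 and 0.99 FPKM in WT and 2.35, 2.08 and 1.55 FPKM in Max-KO. WT 1 lay inside the Max-KO range, so the groups overlapped. The log2 difference was 0.37 ± 0.23 (SE; 95% interval -0.17 to 0.92; 0.16 less the median of all genes; limma adjusted p = 0.192), and its sign turned under quantile normalization (-0.11). Without WT replicate 1 it was 0.62 and passed (limma adjusted p = 0.0193). Nanos2 (ENSMUSG00000051965; chromosome 7, 18987400 to 18988962, plus strand) was at 0.06, 0 and 0.06 FPKM in WT and 0.03, 0.11 and 0.24 FPKM in Max-KO. This stood for an estimated 1.96, 0 and 1.82 fragments in WT and 0.970, 3.01 and 8.93 in Max-KO, so no difference was detectable at this depth (exact 2-sided permutation test, p = 0.3, smallest possible 0.1). An antisense gene, Gm45058, covers 766 of its 1563 exonic bases and was at 0.10 FPKM or below.

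The paralogs of these regulators did not share 1 direction. Of 16 listed 12 were tested, with 7 called higher and 2 lower and a median of 0.62 against 0.21 for all genes (5 and 4 under quantile normalization). Of the 12, 4 were under 1 FPKM in WT, so the filter fixed their direction. With the filter on the mean of all libraries the median was 0.00884 (9 tested, 4 higher and 2 lower), and with no filter 0.0405. Rbm46, which encodes an RNA-binding protein related to DND1, went from 0.14 to 0.25 FPKM in WT to 1.08 to 2.55 FPKM in Max-KO (1.25 ± 0.21). Tfap2a, the AP-2 alpha gene, went from 0.10 to 0.18 to 1.32 to 1.76 FPKM (1.19 ± 0.13).

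NANOS2 and DND1 act with the CCR4-NOT deadenylase, which shortens poly(A) tails, and NANOS proteins act with PUMILIO. All 14 genes on this list were tested, and 6 were called higher and 3 lower, with a median of 0.20 against 0.21 for all genes. Cnot6, a catalytic subunit, stood at 28.0 to 38.4 FPKM in WT and 50.5 to 52.2 in Max-KO (0.57 ± 0.12), and Cnot7, another catalytic subunit, rose by 0.51 ± 0.08. Of the related catalytic subunits, Cnot8 was called lower (-0.19 ± 0.05) and Cnot6l was not called (0.27 ± 0.11). Tnks1bp1 was lower by -0.53 ± 0.14, a call lost after rescaling to TPM (-0.34, limma adjusted p = 0.0670). The counts depended on the scaling, with 2 higher and 4 lower under median-ratio scaling and 10 higher and none lower after rescaling to TPM.

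Kit encodes the receptor tyrosine kinase for stem cell factor on primordial germ cells, spermatogonia and oocytes (ENSMUSG00000005672; chromosome 5, 75574916 to 75656722, plus strand). Its level was 8.68, 8.38 and 7.72 FPKM in WT and 8.61, 7.88 and 9.08 FPKM in Max-KO, and the ranges overlapped. The log2 difference was 0.04 ± 0.09 (SE; 95% interval -0.17 to 0.25; limma adjusted p = 0.711), or -0.17 less the median of all genes. The sign followed the scaling: it was -0.19 with median-ratio factors, 0.24 as TPM and -0.27 with quantile normalization, where it passed (limma adjusted p = 0.0295). Kit is also a gene of mast cells and melanocytes. Among 8 blood and mast cell markers Cpa3 and Mcpt4 were at 0 in all libraries and Gata1 was called higher. Among 6 melanocyte markers Mitf, which encodes a basic helix-loop-helix leucine zipper factor, and Pmel were called higher, and these brought the sum from 6.84 to 7.54 FPKM in WT to 44.8 to 50.9 FPKM in Max-KO. Tyr, Tyrp1 and Dct were at 0.22 FPKM or below in every library.

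Kitl, the gene of the KIT ligand, rose while the receptor was not called. It stood at 2.43, 1.52 and 1.36 FPKM in WT and 3.90, 6.26 and 4.90 FPKM in Max-KO, without overlap (log2 difference 1.12 ± 0.20 SE, limma adjusted p = 0.00204). Of the 19 genes of KIT ligand and downstream signalling 9 were called higher and 4 lower, with a median of 0.28 against 0.21 for all genes (6 and 6 under median-ratio scaling). Akt1, a kinase downstream of KIT, fell by 1.52 on the log2 scale, from 22.5 to 25.1 FPKM in WT to 6.92 to 9.08 FPKM in Max-KO. Its paralog Akt2 was called higher (0.30 ± 0.08), from a mean of 18.6 FPKM in WT to 23.15 FPKM in Max-KO. Lyn, a SRC-family kinase, went from 0.23 to 0.47 to 1.28 to 2.15 FPKM (1.06 ± 0.16), with its direction fixed by the filter, and missed the threshold under quantile normalization (0.46, limma adjusted p = 0.0533).

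**Figure D3:**
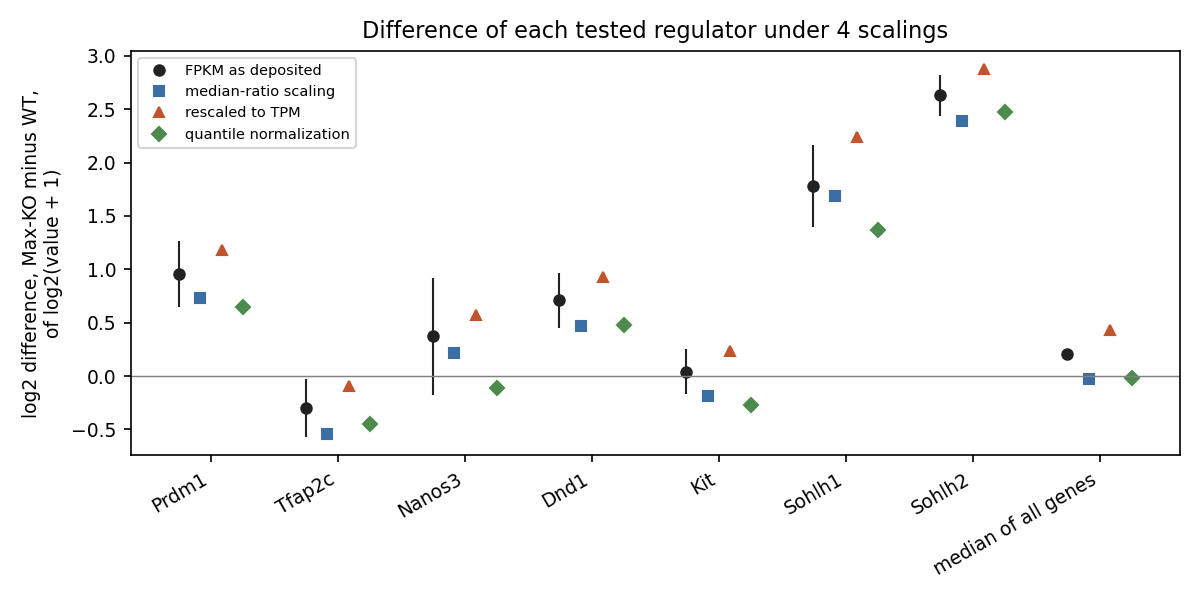
Log2 difference (Max-KO minus WT) of the 7 tested regulators and the median of all genes under 4 scalings; vertical lines are 95% intervals of the values as deposited. Prdm1, Dnd1, Sohlh1 and Sohlh2 stay above 0 under each scaling, Tfap2c stays below 0, and Kit and Nanos3 change sign. Sohlh1 was at 0 in every WT library, so median-ratio factors and TPM could not change its sign.

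On the log2(FPKM + 1) scale Sohlh2 had the largest difference of the 7 (at a pseudocount of 0.1 Sohlh1 had, at 4.66). It encodes a helix-loop-helix factor that works with SOHLH1 in spermatogonia and in oocytes of primordial follicles (ENSMUSG00000027794; chromosome 3, 55182028 to 55209957, plus strand). Its level was 7.81, 7.34 and 8.09 FPKM in WT and 48.86, 52.91 and 57.89 FPKM in Max-KO. The 2 groups were far apart and each was tight. The ratio of means was 6.87, and the log2 difference was 2.63 ± 0.08 (SE; 2.42 less the median of all genes; limma adjusted p = 1.89e-06). A rise of at least this size was seen in 1.73% of genes tested. Its WT level overlapped that of Kit, and in Max-KO it was the highest of the 9.

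Sohlh1 encodes its dimerization partner (ENSMUSG00000059625; chromosome 2, 25842995 to 25847248, minus strand), the gene whose window above held 3 E-boxes. It was listed at 0 FPKM in all 3 WT libraries and at 1.89, 3.24 and 2.32 FPKM in Max-KO 1 to 3. With a single annotated transcript, these stood for an estimated 48.2, 70.0 and 68.1 fragments, where 1 fragment would have been 0.0387 to 0.0432 FPKM in WT. The log2 difference was 1.78 ± 0.16 (SE; 1.57 less the median of all genes; limma adjusted p = 9.67e-05). It depended on the pseudocount, at 4.66 with 0.1, and no fold is given against a group at 0. In Max-KO the mean was 2.48 ± 0.690 FPKM for Sohlh1 (SD, n = 3) and 53.2 ± 4.52 FPKM for Sohlh2.

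Figla encodes the oocyte factor that switches on zona pellucida genes (ENSMUSG00000030001; chromosome 6, 86016171 to 86020996, plus strand). It was at 0, 0 and 0.09 FPKM in WT and 0.57, 0.67 and 0.63 FPKM in Max-KO, under the filter in both groups. This was an estimated 1.05 fragments in WT 3 and 7.01, 6.98 and 8.92 fragments in Max-KO 1 to 3, by the longer of 2 transcripts. The groups did not overlap (exact 2-sided permutation test, p = 0.1, the smallest 3 against 3 can give). With no filter on low values limma gave 0.66 ± 0.08 (adjusted p = 0.00129). The level in Max-KO remained under 1 FPKM.

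**Figure D4:**
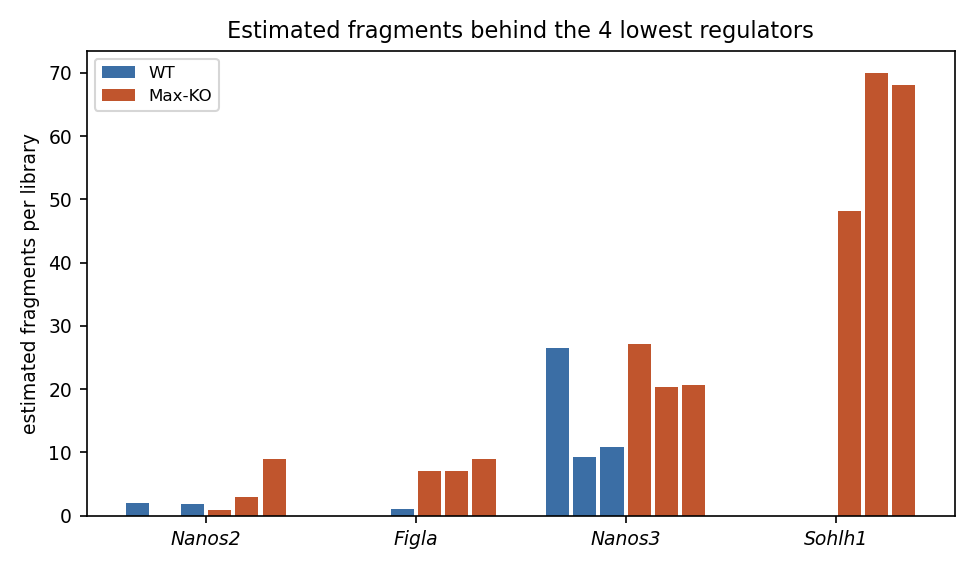
Estimated number of fragments behind the FPKM of Nanos2, Figla, Nanos3 and Sohlh1 in each library, WT 1 to 3 in blue and Max-KO 1 to 3 in orange. Nanos2 and Figla rest on fewer than 10 fragments in every library, and Sohlh1 on 48.2 to 70.0 in Max-KO.

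Helix-loop-helix factors of this class pair with E proteins, and ID proteins hold E proteins away from DNA. The list of these genes also holds Tcfl5, which is neither an E protein gene nor an ID gene. All 8 genes of this list were tested, 7 were called higher and 1 lower, with a median of 1.08 against 0.21 for all genes (6 and 1 with median-ratio factors, and the same numbers with quantile normalization). The 7 were Id1, Id2, Id3, Id4, Tcf4, Tcf12 and Tcfl5 (0.28 ± 0.07 for Tcfl5). Id1 stood at 36.8, 35.2 and 38.4 FPKM in WT and 310, 274 and 225 FPKM in Max-KO (log2 difference 2.83 ± 0.11 SE, limma adjusted p = 3.95e-06). Id2 stood at 28.6 to 29.7 FPKM and 119 to 150 FPKM, and Id4 rose by 1.91 ± 0.17, from 1.48 to 1.67 FPKM to 6.98 to 11.5 FPKM. Tcf3, which encodes the E proteins E12 and E47, went the other way, with 79.53, 77.16 and 82.28 FPKM in WT against 40.05, 39.32 and 41.11 FPKM in Max-KO (-0.97 ± 0.05, limma adjusted p = 1.00e-05). The E protein genes Tcf12 and Tcf4 rose instead. Tcf12 went from 9.15 to 10.04 FPKM in WT to 24.6 to 29.17 FPKM in Max-KO (1.39 ± 0.08). Tcf4 went from 5.60 to 7.96 FPKM in WT to 11.12 to 11.81 FPKM in Max-KO (0.66 ± 0.12).

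**Figure D5:**
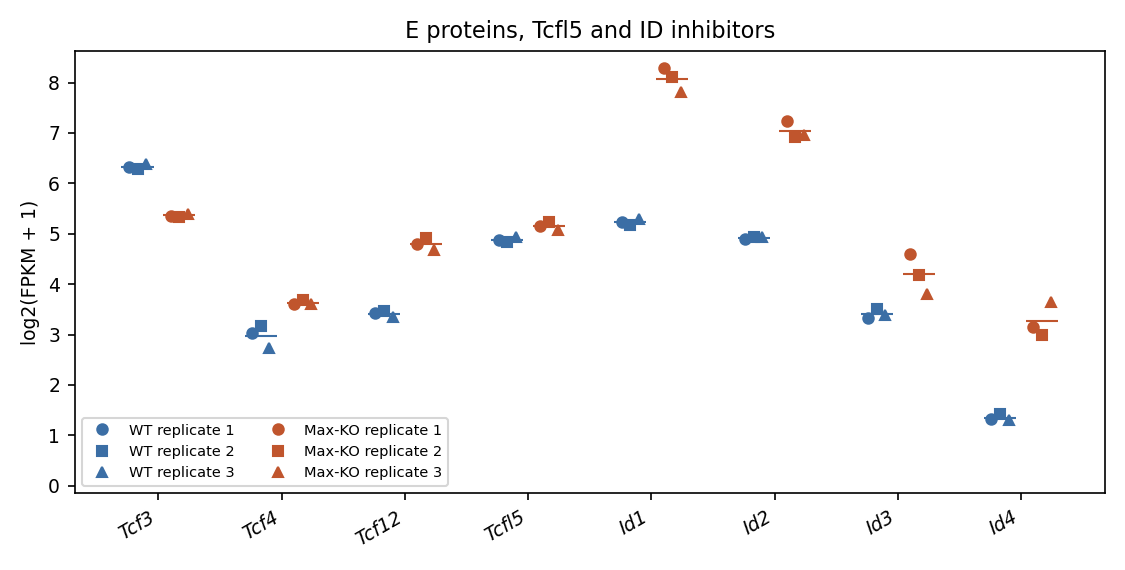
Level of the E protein genes, Tcfl5 and the ID genes in every library as log2(FPKM + 1), WT in blue and Max-KO in orange, with bars at the means. Tcf3 is lower in all 3 Max-KO libraries, and Tcf4, Tcf12, Tcfl5, Id1, Id2, Id3 and Id4 are higher in all 3.

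Oocyte genes that act beside or downstream of FIGLA and the SOHLH factors were mostly not tested. Of 20 listed 8 were tested, with 4 called higher and 3 lower and a median of 0.27 against 0.21 for all genes (2 and 3 under median-ratio scaling), while Lhx8, Oosp1 and H1foo were at 0 in every library. Zp3, a zona pellucida protein gene, stood at 10.1, 12.4 and 12.2 FPKM in WT and fell by 1.54 on the log2 scale to 4.13, 3.18 and 2.74 FPKM in Max-KO. Zp1 and Zp2 were under 1 FPKM in every library and not tested, but went the other way from Zp3 without overlap. Zp1 stood at 0 to 0.03 FPKM in WT and 0.07 to 0.59 FPKM in Max-KO. Zp2 stood at 0.08 to 0.27 FPKM in WT and 0.30 to 0.86 FPKM in Max-KO. Bmp15, an oocyte growth factor gene, went from 0.02 to 0.04 to 1.05 to 1.29 FPKM (1.07 ± 0.12), with its direction fixed by the filter. Uchl1, a ubiquitin hydrolase of germ cells and neurons, fell by 1.03. Neural markers summed to 132 to 152 FPKM in WT and 69.6 to 73.0 FPKM in Max-KO, with 5 of 8 tested, all 5 (Pax6, Nes, Tubb3, Neurod1 and Map2) called lower and none at 0 in all libraries. Their part in the Uchl1 value was not tested.

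Spermatogonial genes were called higher in 8 and lower in 3 of 13 tested among 19 listed, with a median of 0.54 against 0.21 for all genes. Ccnd2, called higher, and Neurog3, not called, were under 1 FPKM in WT and were tested only because of their Max-KO levels. Stra8, a target of retinoic acid at meiotic entry, rose by 3.34 ± 0.15, from a mean of 6.98 FPKM to 80.8 FPKM. Ngfr, a neurotrophin receptor gene, rose by 1.19 ± 0.21, and Etv5, a factor for spermatogonial self-renewal, fell by 1.03. Zbtb16, Gfra1 and Ret, which mark undifferentiated spermatogonia, were under 1 FPKM in every library. Other genes on this list stood well above that in both groups. Sall4 was at 74.62 to 77.34 FPKM in WT and 95.85 to 107.4 FPKM in Max-KO. Utf1 was at 246 to 292 FPKM in WT and 136 to 156 FPKM in Max-KO. Markers of gonadal somatic cells summed to 1.97 to 2.73 FPKM in WT and 5.26 to 7.37 FPKM in Max-KO, with Star called higher, Gata4 called higher in a direction that the filter fixed, and Fshr at 0. Their part in the values of Sohlh1, Sohlh2 and Figla was not tested.

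The order of the 9 levels changed between the groups. In WT it ran from Tfap2c through Dnd1, Kit, Sohlh2 and Prdm1 to Nanos3, with Nanos2, Figla and Sohlh1 last. Kit and Sohlh2 overlapped there, as did each neighbouring pair among the last 3. In Max-KO it ran from Sohlh2 through Tfap2c, Dnd1, Prdm1, Kit, Sohlh1 and Nanos3 to Figla and Nanos2. Tfap2c and Dnd1 overlapped, and so did Sohlh1 and Nanos3.

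Of the 18 genes next to the regulators 8 were called higher, 2 lower and 5 not called, and 3 were not tested. Among all genes tested 43.0% were called higher and 23.2% lower, so these counts are not read as a result about the neighbours. Ccdc169, which ends 9093 bases upstream of Sohlh2 on the same strand, stood at 0.76, 0.66 and 0.71 FPKM in WT and at 8.71, 7.62 and 9.62 FPKM in Max-KO (log2 difference 2.49 ± 0.11 SE, limma adjusted p = 5.91e-06). Dclk1, on the other side of Sohlh2, stood at 0.19, 0.29 and 0.30 FPKM in WT and at 0.83, 27.57 and 0.54 FPKM in Max-KO. The groups did not overlap, but only Max-KO 2 was above 1 FPKM, and Dclk1 was not called. Kcnt1, next to Sohlh1, went from 0.03 to 0.20 FPKM to 0.60 to 1.58 FPKM, and Lcn9 on its other side was listed at 0 throughout. Pdgfra, a receptor gene related to Kit and its neighbour, went from 0.04 to 0.07 FPKM to 1.06 to 1.47 FPKM. Kdr, a receptor gene on the other side of Kit, fell from a mean of 1.32 FPKM to 0.537 FPKM (-0.60 ± 0.13, limma adjusted p = 0.00471). Ccdc169, Kcnt1 and Pdgfra were under 1 FPKM in WT, so the filter fixed their direction.

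Likeness of pattern was measured as the Euclidean distance of log2(FPKM + 1) over the 6 libraries, among the genes tested. The genes closest to Sohlh2 were Syce1 (distance 0.34), a synaptonemal complex gene that went from 6.40 to 8.74 FPKM in WT to 48.5 to 53.2 FPKM in Max-KO, then Tmem18 (0.42) and Tuba3a (0.44). Those closest to Sohlh1 were Fthl17-ps2 (0.19), Gm21762 and Gm11546, each at 0 in every WT library. Prdm1 lay closest to Dock11 (0.23), Lrch3 and Uros, and Dnd1 to Dab2ip (0.22), Pi4kb and Tkfc. Tfap2c was nearest to Fam104a (0.24), Msrb1 and Cdc42bpb, Nanos3 to Sirpa (0.38), Rpl17-ps5 and Layn, and Kit to Adat1 (0.13), Ap4m1 and Cebpg. The distance follows level and group difference together and carries no test.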

How the data were processed

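RNA of 6 libraries was analysed. The deposited values, 1 per identifier and library, were taken as FPKM made by the authors, because they have 2 decimals and differ in their sums; no label or file header names the unit. FastQC, HISAT2 2.1.0, RSEM, DESeq 1.26.0 and build GRCm38.p6 are named, without roles, per the submitters' processing notes. Each library listed 56689 identifiers, of which 1153 assembled loci were left out. Fragment numbers were estimated from the steps of low FPKM in genes with 1 transcript, where 79.9% to 83.4% of values fell within 0.15 of a whole multiple of a step fitted to them. Genes whose mean reached 1 FPKM in either group were fitted as log2(FPKM + 1) with limma 3.58.1 (R 4.3.3; trend, robust, genotype only), adjusted over all genes tested; in simulated data the fit missed part of the 2-fold and 4-fold changes, and its pass mark was lowered after a first mark was not met. Tables were handled in Python 3.11.15. Regulators under the filter got an exact permutation test.

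Named genes were the regulators, up to 3 called genes with the largest difference per list with 1 in the other direction, and the 3 nearest patterns. A gene that this rule selects is not reported here. Prdm14, further list genes outside this rule, and genes named from marker lists, overlaps and gene neighbourhoods were picked with their values in view. The regulators and lists were chosen with earlier results of these data known, and the motifs after the sequences had been seen. Alternatives covered pseudocount, filter, scaling, trend, replicate block and leaving out each library.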

Additional observations from a re-analysis of the deposited data

How the results depend on the processing

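Prdm1, Dnd1, Sohlh1 and Sohlh2 were called higher under all 14 alternatives, with log2 differences of 0.65 to 1.18, 0.47 to 0.93, 1.37 to 4.66 and 2.39 to 2.88. Sohlh1 was at 0 in every WT library and was tested only because of its Max-KO level, so its unchanged direction is not support. The number of regulators called lower, 0 as reported, was 1 under median-ratio scaling, 2 under quantile normalization, 1 with the replicate block and 0 to 1 when each library was left out. The 1 was Tfap2c each time, joined by Kit under quantile normalization. Of all genes tested, 4987 of 14558 were called lower under median-ratio scaling. With quantile normalization it was 4831 of 14661, against 3403 of 14661 as reported. The counts of regulators called lower are therefore not a result about them as a group. Kit changed sign under median-ratio scaling (-0.19), quantile normalization (-0.27), without WT replicate 3 (-0.00279) and without Max-KO replicate 3 (-0.00209), and reached 0.0893 without Max-KO replicate 2. Nanos3 changed sign under quantile normalization (-0.11) and ranged from 0.23 to 0.62 when libraries were left out. The cause of these changes was not tested.

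Replicate numbers did not pair the libraries: deviations of same-numbered libraries correlated at -0.000616, 0.0160 and 0.0855. With the replicate block Tfap2c had an adjusted p of 0.0499 (limma), and the calls of the other 6 tested regulators did not change. The sequencing depth limits statements on Nanos2 and Figla, which rest on fewer than 10 fragments per library.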

Other observations

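Tfap2d, an AP-2 paralog of Tfap2c picked here after its values were seen, stood at 284.11, 292.52 and 191.71 FPKM in WT and 210.94, 271.44 and 213.87 FPKM in Max-KO. The groups overlapped and it was not called, and each of these levels was above that of every one of the 9 regulators.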
